A study of Mus musculus with 34 samples.

Results

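The simple epithelial keratins Krt7, Krt8, Krt18 and Krt19 were followed through 34 RNA-seq libraries of mouse embryonic stem (ES) cells that lacked 1 or all 3 of the MTA proteins, subunits of the NuRD chromatin remodelling complex. The members are 4 of the 48709 genes counted in the control and triple mutant libraries, and of the 22018 genes counted in the single mutant libraries. They were chosen by their counts in the mutants against the controls, among the keratins of simple epithelium. The differences between mutant and control that chose them are therefore given here as a description, with no test.

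Keratins are intermediate filament proteins that polymerise as obligate pairs of a type I and a type II chain, and an unpaired chain is unstable. Krt8 (type II) and Krt18 (type I) form the first keratin pair of the embryo, which appears with the trophectoderm, and they remain the main pair of simple epithelia. Krt7 (type II) and Krt19 (type I) are added in ducts, trophoblast and other simple epithelia. Undifferentiated ES cells contain little of this network.

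The triple mutant, Mta123∆, carried deleted alleles of Mta1, Mta2 and Mta3 (Mta1 ∆/∆, Mta2 ∆/-, Mta3 ∆/∆) and came from a line without Mta1 and with floxed Mta3, in which Mta2 was then targeted before Cre removed Mta3. Its control was not wild type: it was a primary ES line with 1 deleted Mta1 allele and floxed Mta3 (Mta1 +/∆ Mta3 flox/flox), derived in the same experiment as the parent of Mta123∆. Both were sampled in 2i and LIF (2iL), which holds ES cells in the naïve state, and after 48 h in N2B27 medium without the inhibitors and LIF, which starts neural differentiation, with 4 libraries for each genotype and label. Each of the single mutants Mta1∆, Mta2 KO and Mta3∆ was compared with its own parent (Mta1 flox/flox, Mta2 WT and Mta3 flox/flox), with 3 libraries a group in 2iL. Mta1∆ and Mta3∆ came from the floxed lines by Cre, whereas Mta2 KO was a separate primary line, so that genotype and line cannot be told apart there. The same limit holds for Mta123∆, since its control was a separate line and not its parent. All lines were of strain 129/Ola and were grown on gelatin.

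The targeted genes followed the genotype labels. Mta2 was counted at 122 ± 8.13 CPM (counts scaled by library size, SD, n = 4) in controls labelled 2iL and at 6.73 ± 2.096 CPM in Mta123∆, at 193 and 8.27 CPM in the libraries labelled 48 h, and at 236 ± 11.99 and 10.3 ± 1.24 CPM (n = 3) in Mta2 WT and Mta2 KO. Mta3 was at 67.5 and 11.2 CPM in Mta3 flox/flox and Mta3∆, and Mta1 at 84.5 and 43.4 CPM in Mta1 flox/flox and Mta1∆. The culture labels did not match the markers of culture. Sample labels and deposited table names disagree on the culture of the 16 control and Mta123∆ libraries, and the naïve markers were higher in the controls labelled 48 h: Esrrb was at 672 CPM there and at 61.9 CPM in the controls labelled 2iL, and Nanog at 938 and 67.0 CPM. Sox1, an early neural gene, was at 1.79 CPM in the controls labelled 48 h and at 48.5 CPM in those labelled 2iL. In Mta123∆ Nanog was at 687.5 CPM under the 48 h label and at 65.6 CPM under the 2iL label. By these markers the libraries labelled 48 h were the naïve ones. A keratin value under the 48 h label can therefore not be read as one of differentiation. The labels are followed throughout as names. If they are exchanged, every change between cultures takes the opposite sign, and the 2 comparisons of Mta123∆ with its control exchange their names but keep their values.

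Library names such as Ctrl1_1 and MtaKO2_1 were read as a line and a library of that line, which the sources used here do not state. Libraries of a line may be repeat samples of 1 culture, so that p-values over 4 libraries measure the spread between these samples and can be too small. Total counts ran from 37855790 to 57602285 in the control and Mta123∆ libraries and from 13105820 to 40613585 in the single mutant libraries. Krt19 was the most thinly covered member, with 9 to 35 counts a library in the controls.

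In the GENCODE annotation of GRCm38, Krt7 (ENSMUSG00000023039) lies at chr15:101411043-101430313 on the plus strand, Krt8 (ENSMUSG00000049382) at chr15:101996698-102004482 on the minus strand and Krt18 (ENSMUSG00000023043) at chr15:102028180-102032027 on the plus strand. Krt8 and Krt18 are thus divergent neighbours 23.7 kb apart, although Krt18 is a type I gene within the type II cluster, and Krt7 ends 566.4 kb from Krt8. Krt19 (ENSMUSG00000020911) lies in the type I cluster, at chr11:100140810-100148665 on the minus strand. RefSeq promoter windows of GRCm38.p6 were matched for 3 of the 4 members (Krt7, Krt8 and Krt18). As Krt8 and Krt18 were both higher in Mta123∆ than in its control, the part of each window that lies outside annotated exons is shown, 5′ to 3′ on the strand of the gene, for Krt8 (chr15:102004483-102004592, minus strand, 110 bases, from 250 to 141 bases before the RefSeq start) and for Krt18 (chr15:102027966-102028179, plus strand, 214 bases, from 250 to 37 bases before the start). Capitals mark the motif matches.
Krt8: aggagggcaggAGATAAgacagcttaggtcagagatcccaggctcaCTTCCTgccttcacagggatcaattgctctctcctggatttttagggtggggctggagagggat
Krt18: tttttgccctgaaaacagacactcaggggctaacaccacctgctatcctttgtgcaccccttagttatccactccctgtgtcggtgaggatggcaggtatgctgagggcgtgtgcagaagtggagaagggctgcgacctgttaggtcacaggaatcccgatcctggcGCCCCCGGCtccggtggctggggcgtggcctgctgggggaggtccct

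The 250 bases before each start were searched on both strands for the TATA box (letters TATAAA), the GC box (letters GGGCGG), the AP-1 motif (letters TGANTCA), the AP-2 motif (letters GCCNNNGGC), the GATA factor motif (letters AGATAA), the Ets factor motif (letters AGGAAG) and the Grainyhead-like motif (letters AACCNGTT). In the Krt8 window, the capitals above are 1 GATA match, 239 to 234 bases before the start, and 1 Ets match on the other strand. The Krt18 window held 1 AP-2 match, 83 to 75 bases before the start. Krt7 held 4 GC boxes, 2 AP-2 matches (1 of which overlapped a GC box) and 1 Ets match. Of all 32851 windows of this length, 32.7% held the GC box, 13.7% the AP-2 letters, 29.5% the Ets letters and 9.99% the GATA letters. No motif was common to the 3 windows, and none held the TATA box (12.4% of all windows), the AP-1 letters (6.75%) or the Grainyhead-like letters (1.79%).

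The comparison of Mta123∆ with its control asked what the loss of all 3 MTA proteins does to expression, although genotype and line cannot be told apart. Among the libraries labelled 2iL, each of the 4 keratins was higher in every Mta123∆ library than in any control library. Krt8, the type II chain of the first embryonic pair, was at 5.20, 4.11, 5.69 and 5.56 CPM in the controls (libraries 1_1, 1_2, 2_1 and 2_2) and at 151, 178, 28.5 and 33.2 CPM in Mta123∆. Its partner Krt18 was at 8.40, 8.70, 5.96 and 5.91 CPM in the controls and at 155, 171, 26.8 and 27.6 CPM in Mta123∆. For both, the lowest mutant library stood clear of the highest control, by 5.01-fold for Krt8 and 3.08-fold for Krt18.

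Krt7, a keratin of ducts and trophoblast, was at 0.538, 0.698, 0.307 and 0.595 CPM in the same controls and at 39.7, 44.8, 6.40 and 7.87 CPM in Mta123∆. Krt19, which can pair with either type II chain, was at 0.398, 0.246, 0.717 and 0.529 CPM in the controls and at 22.7, 24.1, 5.84 and 6.09 CPM in Mta123∆. Both were under 1 CPM in every control library and above 5 CPM in every mutant library. The mean levels in Mta123∆ were 46.2-fold (Krt7), 19.0-fold (Krt8), 13.1-fold (Krt18) and 31.1-fold (Krt19) those of the controls. The edgeR log2 differences were 5.53 ± 0.77 (SE) for Krt7, 4.26 ± 0.64 for Krt8, 3.72 ± 0.66 for Krt18 and 4.96 ± 0.62 for Krt19. As background, 25.7% of the 21651 genes tested had all Mta123∆ libraries above all controls, and 23.9% had all below. A gene passed the test where its adjusted p was under 0.05 and its log2 fold change was above 1 in size: 20.6% of genes did, 13.2% upwards and 7.43% downwards. In order of their log2 difference Krt7 ranked 55 from the top and Krt18, the lowest of the 4, ranked 293. Because these were bulk samples, keratin RNA in more cells and more keratin RNA in each cell cannot be told apart.

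**Figure D1:**
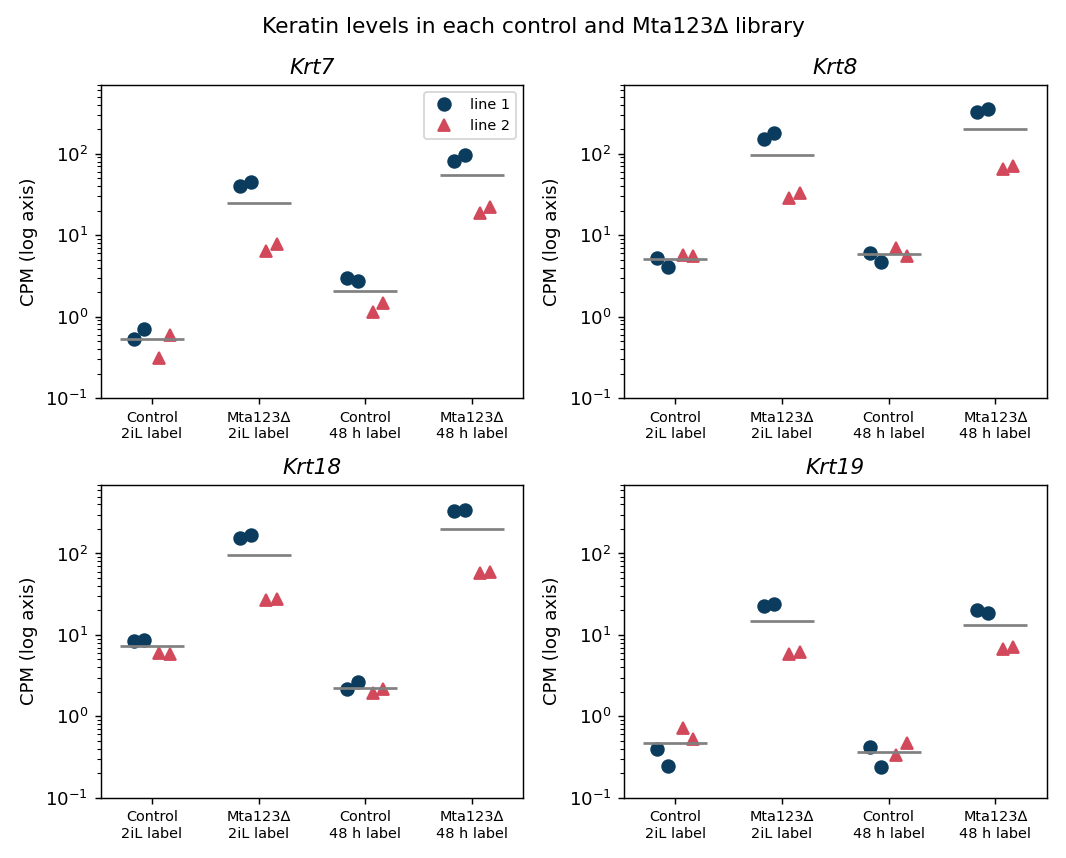
CPM (log axis) of each keratin in every control and Mta123∆ library, by genotype and culture label. Circles are line 1, triangles are line 2, and the bar is the mean of 4 libraries. Every Mta123∆ library lies above every control library, and within Mta123∆ line 1 lies above line 2 for all 4 keratins.

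The same held among the libraries labelled 48 h. Krt8 was at 6.11, 4.68, 6.94 and 5.61 CPM in the controls and at 325.5, 349.7, 65.5 and 70.0 CPM in Mta123∆. Krt18 was at 2.15, 2.63, 1.95 and 2.18 CPM in the controls, and at 331, 343, 57.4 and 59.8 CPM in Mta123∆. This was the widest mean ratio of the 4 genes in either label, 88.7-fold, with a log2 difference of 6.49 ± 0.73.

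Krt7 was at 2.98, 2.71, 1.13 and 1.48 CPM in these controls and at 81.8, 96.0, 19.0 and 22.0 CPM in Mta123∆. Krt19 was at 0.426, 0.237, 0.337 and 0.469 CPM in the controls and at 20.4, 18.7, 6.68 and 7.09 CPM in Mta123∆. The mutant and control libraries did not overlap for any member, against a background of 24.2% of the 21079 genes tested with all Mta123∆ libraries higher. The log2 differences were 5.14 ± 0.63 for Krt8, 4.73 ± 0.64 for Krt7 and 5.16 ± 0.48 for Krt19, with mean ratios of 34.7, 26.3 and 36.0. Across all genes 20% passed the test, 14.1% upwards and 5.93% downwards.

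**Figure D2:**
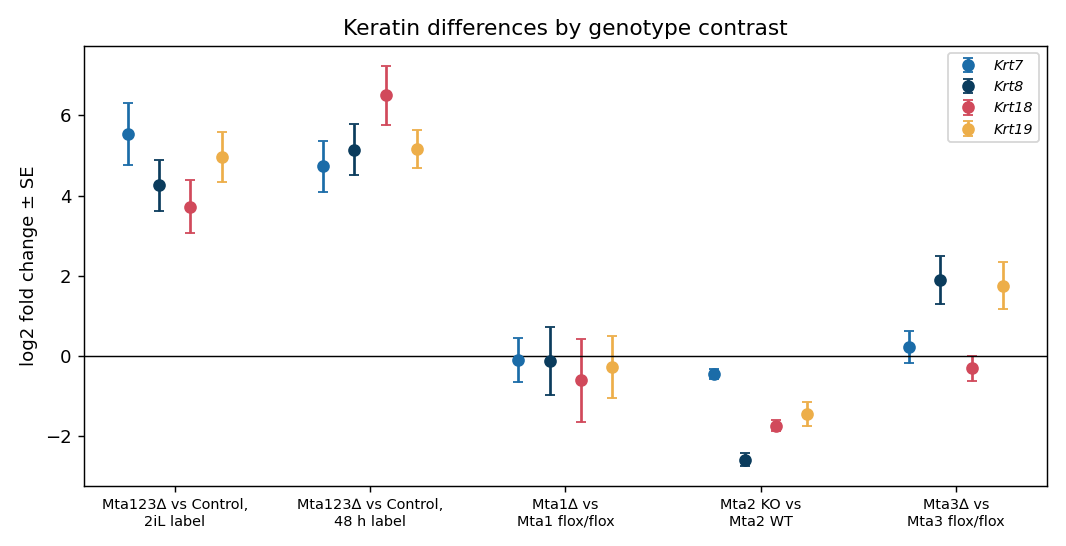
Log2 fold change ± SE (edgeR) of each keratin in the 5 comparisons of a mutant with its control or parent. The 8 values of Mta123∆ lie between 3.72 and 6.49, whereas in Mta2 KO all 4 keratins lie below 0, and in Mta1∆ the error bars cover 0.

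The spread within Mta123∆ lay mostly between the lines. In the libraries labelled 2iL the mean of line 1 exceeded that of line 2 by 5.92-fold for Krt7, 5.34-fold for Krt8, 5.996-fold for Krt18 and 3.93-fold for Krt19. In those labelled 48 h the ratios were 4.34, 4.98, 5.74 and 2.85. Within a line, by contrast, the library pairs were close: Krt18 was at 163 ± 11.2 CPM (SD, n = 2) in line 1 and at 27.2 ± 0.509 CPM in line 2 under the 2iL label. A mean more than 2-fold higher in line 1 was found for 7.88% of the 21505 genes compared under the 2iL label and 7.38% under the 48 h label, and a mean as much lower for 5.36% and 5.17%. The control lines differed less, and not always in the same direction. Krt18 was 1.44-fold higher in line 1 of the controls labelled 2iL, Krt19 was 1.93-fold higher in line 2, and the largest ratio was 2.18-fold, for Krt7 under the 48 h label.

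Line 2 alone still exceeded the mean of the controls, by 13.4-fold for Krt7, 6.01-fold for Krt8, 3.75-fold for Krt18 and 12.6-fold for Krt19 under the 2iL label. For line 1 the same ratios were 79.0, 32.1, 22.5 and 49.6. Under the 48 h label line 2 was 9.86-fold, 11.6-fold, 26.3-fold and 18.7-fold above the controls, in the same order of genes. Thus the direction was the same in each line for all 4 members, and the size was greater in line 1. In fits of each line separately, chosen after seeing the data, the log2 difference of Krt8 under the 2iL label was 2.45 ± 0.10 in line 2, and that of Krt18 was 2.19 ± 0.09.

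Krt8 has a processed pseudogene, Krt8-ps (ENSMUSG00000109325, chr7:23357125-23358069, 945 bases). How reads were divided between the copies was not tested. Krt8-ps was counted at 0.381 to 0.557 of the Krt8 count in each of the 16 libraries, with 80 to 7756 counts, and the level of Krt8 may be uncertain by that share. Summing both gave 7.60 ± 1.01 and 143 ± 114 CPM in control and Mta123∆ labelled 2iL (n = 4 each), and 8.54 ± 1.40 and 301 ± 233 CPM in those labelled 48 h. The sum was higher in Mta123∆ under both labels, as Krt8 alone was.

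As keratin chains work in pairs, the balance of type II to type I counts was examined per kilobase of exon. The ratio of Krt8 to Krt18 was 0.715, 0.765, 0.780 and 0.884 in the Mta123∆ libraries labelled 2iL, and 0.722, 0.749, 0.837 and 0.859 in those labelled 48 h. In the controls it was 0.454, 0.346, 0.701 and 0.690 under the 2iL label and 2.09, 1.31, 2.61 and 1.89 under the 48 h label. The Mta123∆ values of both labels overlapped each other and lay between the control groups, without overlapping either of them. With the counts of the Krt8 pseudogene described above added to Krt8, the separation from the controls labelled 2iL was lost: the log2 ratio of counts was 0.55 in control library 2_1 and 0.54 in Mta123∆ library 1_1. The group means were 0.786 ± 0.0710 and 0.792 ± 0.0663 in Mta123∆ and 0.548 ± 0.176 and 1.97 ± 0.538 in the controls (SD, n = 4 each).

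This ratio stayed narrow across lines whose levels were far apart, but it also differed by line. Under the 2iL label it was 0.715 and 0.765 in line 1 and 0.780 and 0.884 in line 2. Under the 48 h label it was 0.722 and 0.749 in line 1 and 0.837 and 0.859 in line 2. The SD of the log2 level of Krt8 among the Mta123∆ libraries was 1.40 under the 2iL label and 1.34 under the 48 h label, whereas that of the log2 ratio of Krt8 to Krt18 was 0.13 and 0.12. In the controls the order was the opposite: the SD of log2 Krt8 was 0.21 and 0.24, and that of the ratio 0.49 and 0.42. Adding the minor chains gave a ratio of Krt7 and Krt8 to Krt18 and Krt19 of 0.735 ± 0.0504 and 0.799 ± 0.0534 in Mta123∆, and of 0.530 ± 0.153 and 1.90 ± 0.424 in the controls. Without scaling by length, the Krt8 to Krt18 ratio in Mta123∆ was 1.07 ± 0.0967 under the 2iL label and 1.08 ± 0.0903 under the 48 h label. Counts of RNA do not measure the amounts of the proteins.

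**Figure D3:**
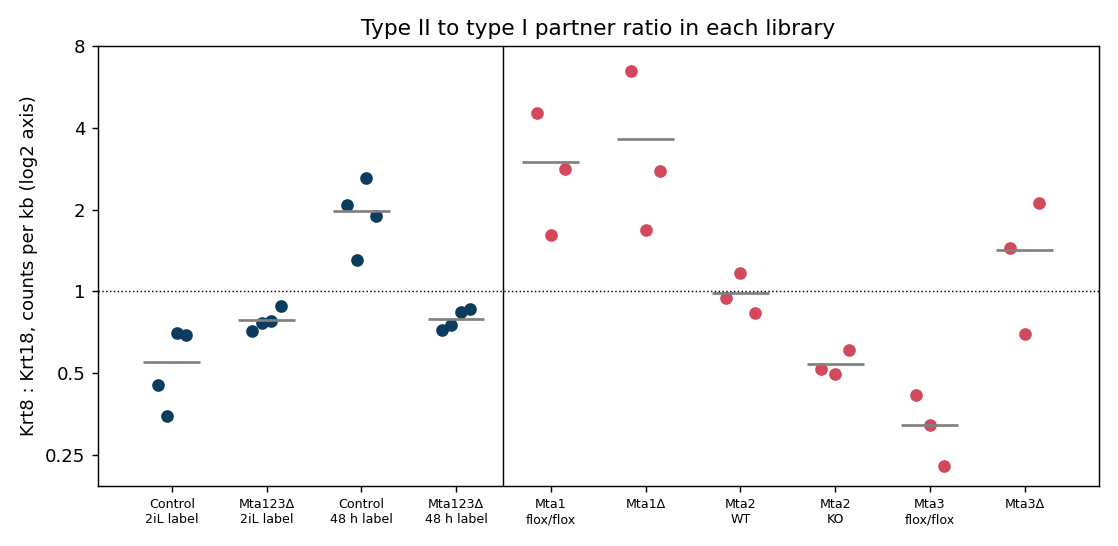
Ratio of Krt8 to Krt18 counts per kilobase of exon (log2 axis) in each library, with the group mean as a bar. The vertical line separates sets that were normalized separately. The 8 Mta123∆ libraries lie between 0.715 and 0.884, and the control libraries lie below them under the 2iL label and above them under the 48 h label.

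The make-up of the set changed accordingly. In per-kilobase levels, Krt18 was 62.6% ± 8.18 of the sum of the 4 in the controls labelled 2iL and Krt8 33.2% ± 6.81, while in those labelled 48 h Krt8 was 59.1% ± 6.97 and Krt18 31.1% ± 5.53. In Mta123∆ the shares were 50.6% ± 2.54 and 39.7% ± 1.61 for Krt18 and Krt8 under the 2iL label, and 52.1% ± 2.78 and 41.1% ± 1.27 under the 48 h label. Krt19 contributed 7.06% ± 1.41 in Mta123∆ labelled 2iL and 3.49% ± 1.20 in those labelled 48 h, and Krt7 2.68% ± 0.165 and 3.23% ± 0.397. The 4 members together made up 65.7 to 71.1% of all keratin counts in the controls labelled 2iL, 27.2 to 29.2% in the controls labelled 48 h, and 80.2 to 92.5% over all Mta123∆ libraries.

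The rule that chose the members did not use the change between cultures, so this was tested, on libraries that also enter the comparisons above. In the controls, Krt18 was lower in the libraries labelled 48 h by 1.71 ± 0.17 on the log2 scale (adjusted p = 6.27e-06, edgeR; 7.24 ± 1.52 against 2.23 ± 0.287 CPM, lower in 4 of 4 same-numbered libraries). Krt7 was higher by 1.96 ± 0.35 (adjusted p = 0.000619, edgeR; 0.535 ± 0.165 against 2.08 ± 0.908 CPM). No change passed the test for Krt8 (0.18 ± 0.14, adjusted p = 0.310, edgeR) or Krt19 (-0.35 ± 0.35, adjusted p = 0.420, edgeR). In this comparison 23.6% of 21240 genes passed, 10.4% upwards and 13.2% downwards. The calls of Krt18 and Krt7 were lost when all 16 libraries shared 1 estimate of spread (adjusted p = 0.0586 and 0.0572, edgeR), which includes the spread between the Mta123∆ lines. Over the 15 settings tried, the adjusted p ran from 7.81e-21 to 0.0586 for Krt18 and from 1.88e-08 to 0.0572 for Krt7.

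In Mta123∆ the change between cultures depended on whether the line difference was removed. Without a block, the log2 changes from the 2iL to the 48 h label were 1.14 ± 0.78 for Krt7, 1.05 ± 0.78 for Krt8, 1.05 ± 0.83 for Krt18 and -0.16 ± 0.59 for Krt19, and none passed (adjusted p = 0.334, 0.381, 0.413 and 0.879, edgeR). Same-numbered libraries deviated together in this comparison (r = 0.552 to 0.586), but so did libraries of a line with different numbers (r = 0.564 to 0.586). The shared deviation was thus that of the line. Once the replicate number was fitted as a block Krt7 rose by 1.28 ± 0.10, Krt8 by 1.09 ± 0.06 and Krt18 by 1.08 ± 0.05 (adjusted p = 6.72e-05, 1.21e-05 and 7.43e-06, edgeR). These p-values take the libraries of a line as separate pairs and can be too small. With the libraries of a line summed and no block, 0 genes passed. Krt19 changed by -0.04 and did not pass under the block (adjusted p = 0.781, edgeR). In each line taken alone, an alternative chosen after seeing the data, the changes were 1.07 and 1.51 for Krt7, 1.04 and 1.13 for Krt8, and 1.05 and 1.10 for Krt18 in lines 1 and 2. The share of genes that passed was 9.46% without the block (4.84% upwards and 4.62% downwards) and 12.4% with it (6.36% and 6.01%). A block on the line in place of the library number gave 6.43% upwards and 6.11% downwards. Naïve pluripotency genes passed the test upwards in the libraries labelled 48 h in the same comparison, 8 of 10 tested.

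The difference between these changes, an interaction of genotype and culture label, equals the difference of the mutant-against-control values that chose the members, and is given as a description with no test. Krt18 was lower in the controls labelled 48 h in 4 of 4 same-numbered libraries and higher in Mta123∆ labelled 48 h in 4 of 4, with a difference of 2.78 ± 0.96 on the log2 scale. It was 2.67 to 2.85 with any replicate number left out and 2.80 ± 0.10 under the replicate block. For the other members the difference was 0.89 ± 0.86 (Krt8), -0.80 ± 1.01 (Krt7) and 0.21 ± 0.81 (Krt19), and 0.93 ± 0.08, -0.64 ± 0.22 and 0.31 ± 0.28 under the block. As background, 23.1% of all 22973 genes passed without the block at an adjusted p under 0.05 (12.5% towards a higher change in Mta123∆ and 10.6% towards a lower one), and 37.5% with it (19.7% and 17.8%).

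The single mutants were each set against their parents, to ask whether loss of 1 MTA protein is enough. In Mta2 KO the keratins were lower than in Mta2 WT, opposite to Mta123∆. Krt8 was at 2.05, 1.52 and 2.35 CPM in Mta2 KO and at 12.2, 12.6 and 10.6 CPM in Mta2 WT. Krt18 was at 2.90, 2.24 and 2.84 CPM in Mta2 KO and at 9.52, 7.92 and 9.31 CPM in Mta2 WT. Neither gene had overlapping groups, and the spread within groups was small.

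Krt19 was at 0.359, 0.379 and 0.489 CPM in Mta2 KO and at 0.831, 1.23 and 1.27 CPM in Mta2 WT, and Krt7 at 3.11, 2.62 and 3.13 against 4.19, 3.71 and 4.25 CPM. The log2 differences were -2.57 ± 0.16 for Krt8, -1.73 ± 0.14 for Krt18, -1.44 ± 0.30 for Krt19 and -0.45 ± 0.14 for Krt7. Groups lay apart, lower in the mutant, for all 4 members and for 28.3% of the 15602 genes tested, and higher for 26.6%. The test was passed by 11.3% of genes, 6.04% downwards and 5.31% upwards. The Krt8 to Krt18 ratio per kilobase was 0.520, 0.496 and 0.607 in Mta2 KO and 0.944, 1.17 and 0.832 in Mta2 WT. Krt8-ps was not among the genes counted in the single mutant libraries. Its effect on the ratio could therefore not be examined in this set.

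Mta3∆ differed from its parent in part of the set. Krt8 was at 11.6, 3.20 and 16.8 CPM in Mta3∆ and at 3.86, 3.17 and 1.22 CPM in Mta3 flox/flox, so that the groups overlapped, with a log2 difference of 1.90 ± 0.60, which was 1.03 without the libraries numbered 3 and 2.51 without those numbered 2. Krt19 was at 1.29, 1.74 and 5.05 CPM against 0.827, 0.987 and 0.472 CPM, with groups apart and a log2 difference of 1.76 ± 0.58. Without the libraries numbered 3 the value for Krt19 was 0.67 ± 0.42. All 3 Mta3∆ libraries were above all parents for 23.4% of the 15522 genes tested and below them for 17.7%. The test was passed by 6.06% of genes, 0.812% upwards and 5.25% downwards. The number of genes called was 941, and 2 without the libraries numbered 1 or without those numbered 3.

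Krt7 was at 2.72, 4.07 and 5.78 CPM in Mta3∆ and at 5.03, 1.94 and 3.504 CPM in the parent (0.24 ± 0.40), and Krt18 at 5.85, 3.36 and 5.87 against 6.82, 7.23 and 3.94 CPM (-0.30 ± 0.32). The groups overlapped for both. The ratio of Krt8 to Krt18 per kilobase was 1.45, 0.699 and 2.11 in Mta3∆ and 0.415, 0.322 and 0.228 in Mta3 flox/flox, apart between the groups. Whether the groups stay apart with Krt8-ps added could not be examined here.

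In Mta1∆ and its parent the libraries of 1 group differed more than the groups. Krt8 was at 15.4, 4.70 and 45.7 CPM in Mta1∆ and at 6.66, 32.0 and 31.8 CPM in Mta1 flox/flox. Krt18 was at 1.74, 2.06 and 12.1 CPM and at 1.08, 14.6 and 8.27 CPM. High Krt8 and high Krt18 did not mark the same libraries throughout, since library 1 of Mta1∆ held 15.4 CPM of Krt8 with 1.74 CPM of Krt18.

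Krt7 was at 1.62, 3.04 and 1.31 CPM in Mta1∆ and at 1.69, 3.52 and 1.12 CPM in the parent, and Krt19 at 0.665, 1.52 and 0.449 against 0.234, 1.76 and 1.16 CPM. The log2 differences were -0.12 ± 0.85 for Krt8, -0.60 ± 1.03 for Krt18, -0.26 ± 0.77 for Krt19 and -0.09 ± 0.55 for Krt7, and all groups overlapped. Each estimate with 2 SE on both sides spanned at least the -1.20 to 1.02 found for Krt7. Same-numbered libraries deviated together here, and under the replicate block the span for Krt7 was -0.57 to 0.49. No gene of 14561 passed in this comparison by edgeR, blocked by replicate number or not, or by DESeq2 (50 genes without and 468 with the block at an unadjusted p under 0.05, and 88 by DESeq2). The deleted gene Mta1, with a log2 difference of -0.97 ± 0.18, did not pass either. The absence of calls is therefore no sign that a gene was unchanged. The groups were apart for 1.24% of genes in each direction. Primitive endoderm markers also varied within the parent, with summed levels from 144.7 to 348 CPM against 152 to 186 CPM in Mta1∆, and their part in the keratin values was not tested.

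**Figure D4:**
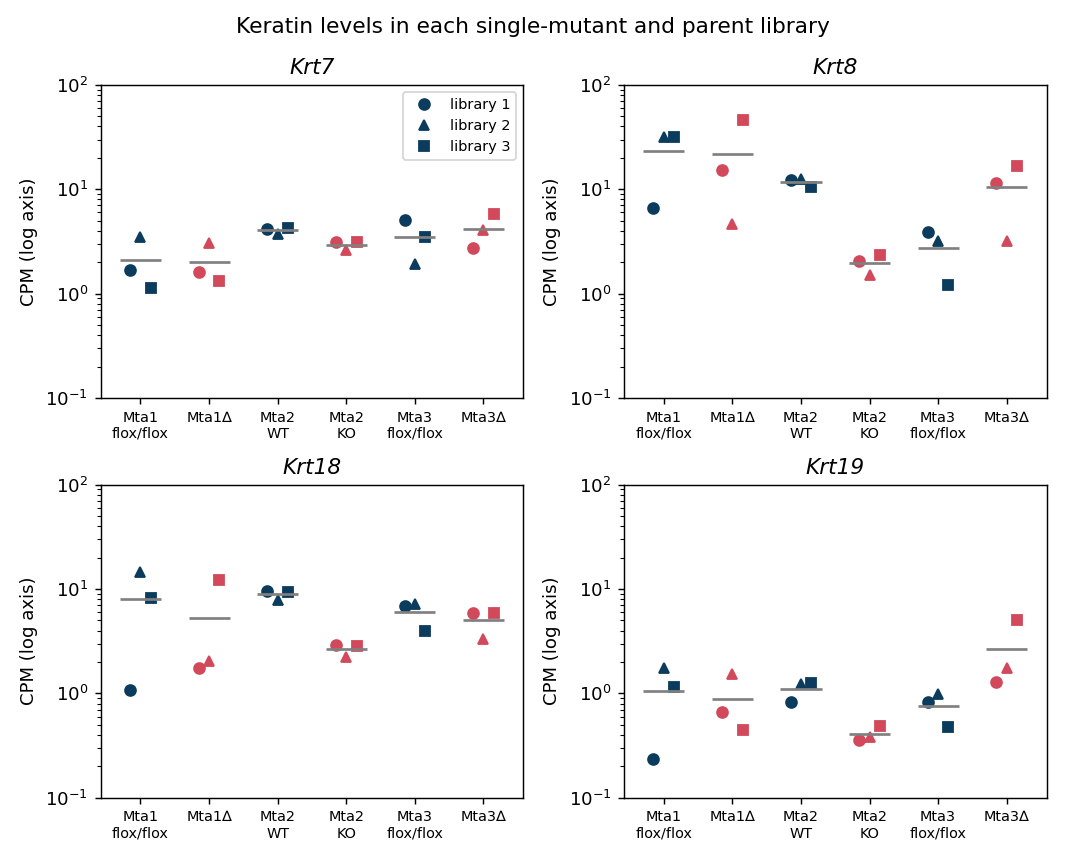
CPM (log axis) of each keratin in every single mutant and parent library, with the mean of 3 libraries as a bar and the symbol giving the library number. Mta2 KO lies below Mta2 WT for all 4 keratins, and the Mta1∆ and Mta1 flox/flox libraries overlap for all 4.

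Ordered by mean CPM within each set, Krt7 and Krt8 were highest in Mta123∆ labelled 48 h, then in Mta123∆ labelled 2iL, then in the controls labelled 48 h and lowest in the controls labelled 2iL. Krt18 had the control groups in the other order, and Krt19 was at 14.7 ± 10.1 CPM in Mta123∆ labelled 2iL and 13.2 ± 7.37 CPM in those labelled 48 h. Neighbouring groups overlapped within Mta123∆ for all 4 genes, and within the controls for Krt8 and Krt19. In the single mutant set Krt8 ran from 23.5 ± 14.6 CPM in Mta1 flox/flox down to 1.97 ± 0.422 CPM in Mta2 KO, with each group overlapping the next. Krt18 ran from 8.92 ± 0.868 CPM in Mta2 WT to 2.66 ± 0.362 CPM in Mta2 KO, and only the last step, from Mta3∆ to Mta2 KO, was free of overlap. Krt19 was highest in Mta3∆ (2.69 ± 2.05 CPM), whose lowest library (1.29 CPM) was barely above the highest of the next group, Mta2 WT (1.27 CPM). Mta3∆ overlapped the lower-ranked Mta1 flox/flox (up to 1.76 CPM) and Mta1∆ (up to 1.52 CPM). The mean of Krt7 stayed between 1.99 and 4.19 CPM in all 6 groups. Per kilobase of exon, Krt18 had the highest level of the 4 in Mta123∆ under both labels (66.2 ± 54.8 and 137.5 ± 112 CPM per kb), followed by Krt8 (49.9 ± 39.9 and 104 ± 79.7 CPM per kb).

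Other keratins were counted against the same background. Of the 23 other type II keratins in the files, 5 had enough counts to be tested under the 2iL label and 6 under the 48 h label. Their control means were only 0.0462 to 0.139 CPM and 0.0119 to 0.125 CPM, so that they entered the test through the mutant libraries and had to be higher there. That all of them passed upwards is therefore no support for a direction of the type II keratins. Krt5, the basal partner of Krt14 in stratified epithelia, rose by 6.01 ± 1.10 (adjusted p = 0.00178, edgeR; 0.0781 ± 0.0324 to 5.17 ± 5.08 CPM). Krt84, a keratin of hair and tongue, rose by 5.19 ± 0.93, Krt75, of hair follicles, by 3.89 ± 0.63, and Krt4, of mucosal epithelium, by 2.44 ± 0.48. The highest library of any of these was Krt5, at 10.3 CPM under the 2iL label and 13.2 CPM under the 48 h label.

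Of the other type I keratins 4 of 7 tested rose under the 2iL label and 2 of 6 under the 48 h label. Krt14, at a control mean of 0.192 CPM under the 2iL label, entered the test there through the mutant libraries. Krt14 rose by 2.54 ± 0.56 and 1.91 ± 0.41 under the 2iL and 48 h labels, and Krt17, a keratin of skin appendages, by 1.66 ± 0.25 and 1.45 ± 0.20. Krt20, of gut and urothelium, rose by 2.39 ± 0.58 under the 2iL label. Krt42 rose by 1.504 ± 0.11 under the 2iL label (2.00 to 5.68 CPM) and was at 21.9 and 23.6 CPM under the 48 h label, which did not pass (adjusted p = 0.388, edgeR).

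Of 16 intermediate filament genes of other classes tested, 3 rose and 3 fell under the 2iL label, and 5 rose and 1 fell under the 48 h label. Vim (vimentin), the filament of mesenchymal and many undifferentiated cells, fell by 1.07 ± 0.16 (adjusted p = 0.000543, edgeR; 122.5 ± 27.1 to 58.4 ± 6.59 CPM) under the 2iL label, and by 1.82 ± 0.09 (174 ± 7.36 to 48.7 ± 6.04 CPM) under the 48 h label. Bfsp2 and Bfsp1, beaded filament proteins of the lens, rose by 2.75 ± 0.33 and 1.96 ± 0.28 under the 2iL label, and Sync rose by 1.30 ± 0.31.

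Desmosomes anchor keratin filaments to the cell surface. Of 14 desmosome and keratin linker genes tested under the 2iL label 9 rose and 0 fell (median 1.74), and under the 48 h label 8 of 15 rose and 0 fell. Without a threshold on fold change, 1 of the 14 fell. Perp, a desmosome membrane protein, rose by 4.09 ± 0.50 (6.54 ± 2.44 to 111 ± 66.5 CPM) and Dsg3, a desmosomal cadherin, by 5.63 ± 0.93 from 0.0103 to 0.648 CPM. Dsg3 entered the test through the mutant libraries and had to be higher there. Dsp (desmoplakin), which binds the keratin filaments, rose by 3.20 ± 0.61 under the 2iL label (adjusted p = 0.00220, edgeR), and was at 21.6 ± 11.2 and 44.5 ± 26.9 CPM in control and Mta123∆ under the 48 h label (adjusted p = 0.107, edgeR). Dsg2 rose by 3.01 ± 0.19 under the 2iL label, and under the 48 h label its log2 fold change of 0.90 was below the threshold.

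Epithelial adhesion genes passed upwards in 11 of 20 under the 2iL label and in 12 of 20 under the 48 h label, with 0 downwards. The polarity gene Crb3 rose by 3.25 ± 0.19 and 2.87 ± 0.12 under the 2iL and 48 h labels, and the claudins Cldn6 and Cldn7, of tight junctions, by 3.13 ± 0.27 and 2.62 ± 0.43 under the 2iL label. Cdh1 (E-cadherin), which ES cells express throughout, had a log2 fold change of 0.49 and 0.59, below the threshold. Epcam, another surface protein of epithelium and ES cells, was at 0.36 under the 2iL label and rose by 2.46 ± 0.15 under the 48 h label.

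Epithelial and trophectoderm transcription factors passed upwards in 17 of 25 under the 2iL label and in 10 of 24 under the 48 h label, with 0 downwards. Without a threshold on fold change, 19 rose and 2 fell under the 2iL label, and 12 rose and 6 fell under the 48 h label (Klf4, Klf5, Tfap2c, Ets2, Sp1 and Sp3). Gata3 and Gata2, factors of the trophoblast, rose by 5.61 ± 0.67 and 5.27 ± 0.64 under the 2iL label and by 4.22 ± 0.39 and 4.53 ± 0.67 under the 48 h label. Gata3, at 0.113 CPM in the controls labelled 2iL, entered the test there through the mutant libraries. Tfap2c (AP-2γ) rose by 3.68 ± 0.41 under the 2iL label and had a log2 fold change of -0.58 under the 48 h label, and Klf5 had 1.11, which passed, and -0.76 (both negative values were below the threshold on fold change). Elf5 rose by 3.33 ± 0.53 under the 2iL label.

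**Figure D5:**
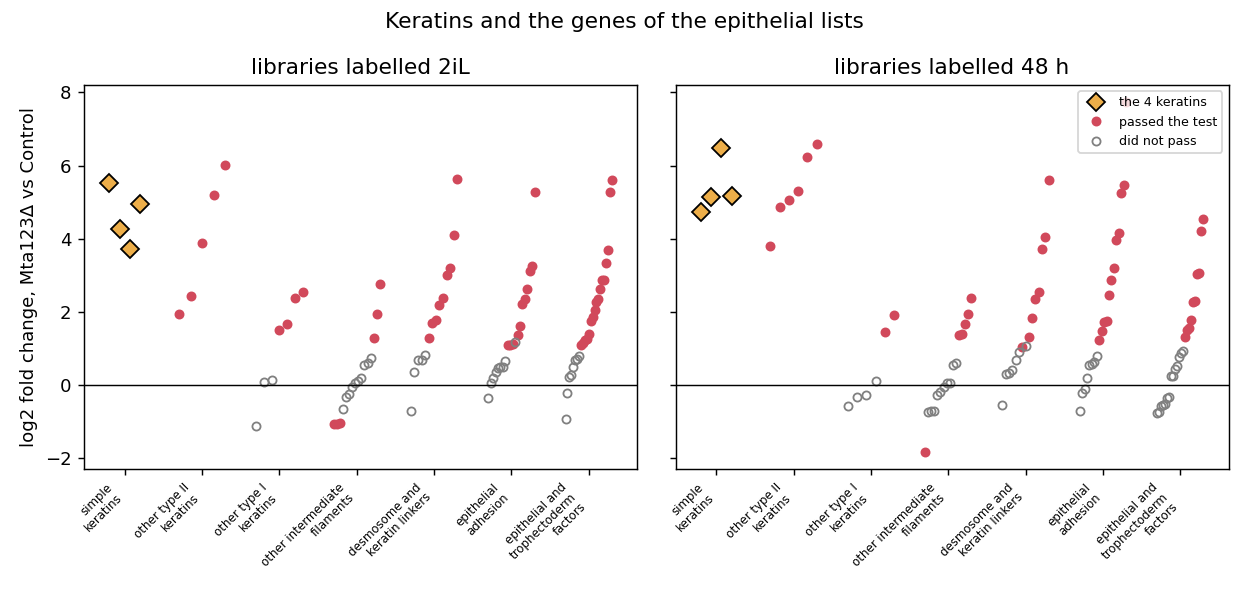
Log2 fold change of Mta123∆ against control for the 4 keratins (diamonds, no test) and for the tested genes of the other keratin, filament, junction and transcription factor lists, under each culture label. Filled points passed the test on both p and fold. The tested type II keratins, which entered the test through the mutant libraries, lie above 0, and the other filaments lie on both sides.

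Markers of other cell types were measured beside these. All 9 trophectoderm markers rose under the 2iL label, among them Hand1 by 5.03 ± 0.82, and 4 of 8 under the 48 h label. Gata3 entered the test through the mutant libraries under the 2iL label and had to be higher there. Their summed level was 10.2 to 17.6 CPM in the controls and 88.9 to 226 CPM in Mta123∆ under the 2iL label, and 95.9 to 119.5 and 103 to 237 CPM under the 48 h label, with 0 of the 9 markers absent from any of these groups. Within Mta123∆ the sum followed the lines as the keratins did, at 219 to 226 CPM in line 1 and 88.9 to 90.2 CPM in line 2 under the 2iL label, and at 229 to 237 and 103 to 114 CPM under the 48 h label. This order was not particular to trophectoderm markers. Under the 2iL label line 1 was also higher for stratified epithelium markers (127 to 139 against 82.9 to 95.2 CPM). The same held for primitive endoderm markers (149 to 150 against 94.3 to 95.9 CPM) and fibroblast or feeder markers (13.4 to 15.3 against 7.85 to 9.63 CPM). Under the 48 h label primitive endoderm markers were lower in line 1 (65.0 to 72.1 against 100 to 106 CPM). The part of trophectoderm-like cells in the keratin levels was not tested.

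Of the 5 stratified epithelium markers tested, 4 rose under each label, with sums of 2.81 to 3.68 and 82.9 to 139 CPM under the 2iL label, mostly Sfn (2.03 to 103 CPM, 5.67 ± 0.21). Krt5, Krt14 and Trp63 had control means of only 0.0781, 0.192 and 0.168 CPM under the 2iL label. Under the 48 h label Krt5 and Trp63 had 0.0941 and 0.121 CPM. Genes this low in the controls entered the test through the mutant libraries and had to be higher there. Their rises are therefore no support for a direction of these markers. Krt1, Ivl and Lor, of the upper layers, were each at most at 0.0435 CPM in any control or Mta123∆ group, and Ivl was at 0 under the 48 h label. Krt10, of the same list, was higher. It was at 0.939 and 0.993 CPM in control and Mta123∆ labelled 2iL, and at 0.985 and 0.787 CPM in those labelled 48 h. Trp63, the factor of basal cells, rose by 2.80 ± 0.44 under the 2iL label, to 1.20 CPM. Primitive endoderm markers were mixed (3 rose and 2 fell of 10 under the 2iL label, 3 and 2 of 9 under the 48 h label; sums 30.6 to 76.0 and 94.3 to 150.2 CPM under the 2iL label). Fibroblast or feeder markers summed to 3.24 to 5.73 and 7.85 to 15.3 CPM under the 2iL label, with 4 of 5 tested rising and 1 falling, and 1 of 3 rising under the 48 h label. Of the naïve pluripotency genes 4 of 10 rose under the 2iL label, where 0 fell, and 2 fell under the 48 h label, where 0 rose. Of the early neural markers 1 rose and 4 of 7 fell under the 2iL label, and 2 rose and 2 of 6 fell under the 48 h label. The part of these cell types in the keratin values was not tested either.

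In Mta2 KO, where the 4 keratins were lower, most linker and adhesion genes did not pass, and more of those that passed rose than fell. Over all genes 5.31% passed upwards and 6.04% downwards. Of 15 desmosome and keratin linker genes 4 rose and 0 fell, among them Perp by 2.37 ± 0.07 (10.5 to 53.7 CPM) and Dsp by 1.55 ± 0.15 (11.2 to 32.6 CPM). Of 18 adhesion genes 6 rose and 1 fell, and Crb3 rose by 2.21 ± 0.17. Vim, at 188.5 ± 0.805 and 109 ± 4.11 CPM in Mta2 WT and Mta2 KO, stayed below the threshold on fold change (-0.79 ± 0.04). Of the transcription factors 3 rose and 3 fell of 25, with Tfap2c up by 1.22 ± 0.06 and Cdx2, the trophectoderm factor, down by 3.30 (15.5 to 1.54 CPM). Krt42 rose by 1.99 ± 0.11 and Krt23 fell by 3.07 ± 0.58, so that the 5 other type I keratins tested did not share a direction. Trophectoderm marker sums were 114 to 127 CPM in Mta2 WT and 160.2 to 168 CPM in Mta2 KO.

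In Mta3∆ 1 of 15 linker genes rose and 1 fell, 2 of 19 adhesion genes rose and 1 fell, and 0 of 25 transcription factors rose and 1 fell. Crb3 rose by 1.43 ± 0.37 and Krt42 by 2.18 ± 0.44. Fibroblast or feeder markers differed beside the keratins, with summed levels of 18.7 to 65.9 CPM in Mta3 flox/flox and 10.4 to 13.2 CPM in Mta3∆, and their part was not tested. In Mta1∆ no list had a gene that passed.

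The nearest protein-coding genes were examined for their own values. Of the 18 neighbours (3 on each side of the Krt8 and Krt18 pair, of Krt7 and of Krt19), 7 were tested under the 2iL label and 3 rose, all keratins (Krt4, Krt79 and Krt14). Under the 48 h label 9 were tested and 3 rose, again keratins (Krt80, Krt87 and Krt14). Over all genes, 13.2% and 14.1% passed upwards under the 2 labels. Control means were only 0.0462, 0.139 and 0.192 CPM for Krt4, Krt79 and Krt14 under the 2iL label. Those of Krt80 and Krt87 were 0.0176 and 0.0716 CPM under the 48 h label. Genes this low in the controls entered the test through the mutant libraries and had to be higher there. Their rises are therefore no result about the locus. The non-keratin neighbours of the pair did not pass both thresholds: Eif4b, a translation factor 41.7 kb from Krt18, was at 641 and 554 CPM in control and Mta123∆ labelled 2iL (-0.21 ± 0.07), Tns2 at 7.09 and 5.83 CPM and Spryd3 at 8.06 and 8.196 CPM. Krt87, 0.725 kb beyond Krt7, rose by 3.80 ± 0.51 under the 48 h label, to 1.04 CPM. The median log2 fold change over the genes of chromosomes 15 and 11 was -0.01 and 0.06 under the 2iL label and 0.02 and 0.01 under the 48 h label.

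The genes whose pattern was most like that of Krt8 and Krt18 over the 16 control and Mta123∆ libraries were Cfap43 (Pearson r of log2 CPM with the mean of the pair 0.996), App (0.993), Tmc4 (0.992), Chdh (0.990) and Iqsec1 (0.990), out of 18380 genes compared. These values are a description, as the libraries share genotype and line, and 179 genes had an r above 0.95. Krt19 had 0.968 and Krt7 0.927. App, the amyloid precursor protein, was at 9.43 and 39.2 CPM in control and Mta123∆ labelled 2iL, with 58.3 CPM in line 1 and 20.1 CPM in line 2. Chdh, choline dehydrogenase, was at 0.114 and 4.12 CPM, with 7.06 and 1.18 CPM in lines 1 and 2.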

How the data were processed

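RNA-seq of 34 mouse ES cell libraries was analysed. The authors trimmed reads with Trim Galore, aligned them to GRCm38/mm10 with TopHat2 and counted reads per gene with featureCounts, and deposited raw counts per gene and library, which were used as deposited. Both a NEXTflex Rapid Directional and a SMARTer Stranded Pico kit are named, and which kit made which library is not given in the sources used here. The single mutants were read single-end and the control and Mta123∆ libraries paired-end, so the sets of 16 and 18 libraries were normalized separately and levels were compared only within a set. Of the 48709 and 22018 Ensembl identifiers, 48349 and 21852 were named from the GENCODE annotation of GRCm38, and 92 spike-in rows were kept out of the tests and library sizes.

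Counts were analysed in R 4.3.3 with edgeR 4.0.16 (TMM, filterByExpr, quasi-likelihood test, Benjamini-Hochberg adjustment over all genes tested). A gene too low in 1 group for the count filter entered a test through the other group, which fixed its direction. A gene was called where the adjusted p was under 0.05 and the log2 fold change above 1 in size, and interactions at an adjusted p under 0.05 alone. The interaction had been planned as a test, but for the members it is the difference of the contrasts that chose them, so their values are given without p. CPM values are TMM-scaled. DESeq2 1.42.0 and the other alternatives are given in the closing section. The pipeline was tested on simulated data. The members, gene lists and marker lists were chosen with earlier results of these data known. Named genes were the members, the targeted genes, culture markers, up to 4 genes a list with the largest change among those called under the 2iL label in the same direction in all same-numbered pairs, Vim, Cdh1, Epcam, Dsp, Klf5 and Gata3, the 18 neighbours and the 5 most alike genes. Krt1, Krt10, Ivl, Lor, Krt23, Cdx2 in Mta2 KO and genes named in Mta2 KO and Mta3∆ were chosen after their values were seen. Levels per kilobase used the union of exons (1958 bases for Krt8, 1437 for Krt18, 7049 for Krt7, 1855 for Krt19).

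Replicate numbers were taken as pairs where deviations from group means were correlated above 0.1 in every same-numbered pair: between cultures in the controls (r = 0.272 to 0.337), between cultures in Mta123∆ (0.552 to 0.586) and in the Mta1 comparison (0.434 to 0.702). In Mta123∆, libraries of a line with different numbers were as closely correlated (0.564 to 0.586), so that the number stood for the line there. No libraries were alike within sampling noise: the chi-square per degree of freedom was at least 6.32 between libraries of a line of control or Mta123∆ and at least 4.41 between single mutant or parent libraries of a group. The fits of 1 line, the block on line, the sums with Krt8-ps and the principal transcript lengths were chosen after seeing the data.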

Additional observations from a re-analysis of the deposited data

Results flagged for a closer look

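The change of Krt18 between culture labels was in opposite directions in Mta123∆ and its control: it was lower in the controls labelled 48 h in 4 of 4 same-numbered libraries, and higher in Mta123∆ labelled 48 h in 4 of 4. The difference of the changes was 2.78 ± 0.96 on the log2 scale. It was not tested, since it is the difference of the values that chose the gene. Under exchanged culture labels it has the opposite sign. No library of a group of 4 stood apart by Dixon's limit in the 20 groups examined.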

How the results depend on the processing

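All 4 keratins stayed higher in Mta123∆ than in control, under both labels, in every alternative run (DESeq2, no filter on low counts, a replicate block, libraries of a line summed, 1 fit of all libraries, each line alone and each library left out), and lower in Mta2 KO in all of those run there. In line 2 alone the log2 differences under the 2iL label were 3.98 (Krt7), 2.45 (Krt8), 2.19 (Krt18) and 3.24 (Krt19), and under the 48 h label 3.45 (Krt8), 4.84 (Krt18) and 4.10 (Krt19); in line 1 alone Krt19 had 6.15 under the 2iL label. Summing the libraries of a line left 2834 genes called under the 2iL label against 4470, and 0 in the change between cultures in Mta123∆ against 2035 (3568 genes at an unadjusted p under 0.05, and 2777 called by DESeq2). In the controls, 1 fit of all libraries gave 1.94 (Krt7) and -1.72 (Krt18), neither called, and Krt19 had 0.084 in line 1 alone. Exchanging the culture labels gave -1.96, -0.18, 1.71 and 0.35 for Krt7, Krt8, Krt18 and Krt19 in the controls and -1.14, -1.05, -1.05 and 0.16 in Mta123∆.

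The replicate block gave culture changes of 1.28, 1.09 and 1.08 for Krt7, Krt8 and Krt18 in Mta123∆, a block on line gave 1.27, 1.08 and 1.08, line 1 alone 1.07, 1.04 and 1.05, and line 2 alone 1.51, 1.13 and 1.10, with Krt19 at 0.20 in line 2 alone. In the interaction, which was not tested for the members, the block gave -0.64 (Krt7), 0.93 (Krt8) and 8613 genes called against 5306, line 1 alone -1.10 (Krt7), 0.84 (Krt8) and -0.33 (Krt19), and line 2 alone 1.001 (Krt8). Krt18 had 2.80 when libraries of a line were summed (710 genes called) and 2.52 under spike-in scaling (3364 genes called), where Krt19 had -0.048. The same numbers did not pair the libraries of Mta123∆ and control (r from -0.255 to 0.031), or of Mta2 (-0.184 to 0.306) and Mta3 (-0.129 to 0.340). There the block left 4242 and 4031 (2iL and 48 h labels), 1751 and 981 genes called against 4470, 4218, 1770 and 941. Leaving out replicates gave 1.03 to 2.51 for Krt8 and 0.67 to 2.28 for Krt19 in Mta3∆, with 2 to 1343 genes called, and in the interaction 2.67 to 2.85 for Krt18, -0.15 to 0.41 for Krt19 (below 0 without libraries 2_1) and 2975 to 3806 genes called, 2975 of them without libraries 1_1 and 3277 without 1_2. Of 96 list counts, 14 moved by over 1.5 times without the threshold on fold change. The cause of these changes was not tested.

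For the log2 balance of Krt8 to Krt18, adding Krt8-ps gave -0.36 and 1.49 in the controls and 0.20 and 0.22 in Mta123∆ (2iL and 48 h labels), with the groups labelled 2iL then overlapping, and counts without length scaling gave 1.38 in the controls labelled 48 h, 0.095 and 0.11 in Mta123∆, -0.45 in Mta2 KO, 0.41 in Mta2 WT and -1.23 in Mta3 flox/flox. For Krt7 and Krt8 over Krt18 and Krt19, the counts alone gave -0.43 and 1.61 in the controls, 0.17 and 0.34 in Mta123∆, 0.68 in Mta2 KO, 0.66 in Mta2 WT, 0.85 in Mta3∆ and -0.12 in Mta3 flox/flox, adding Krt8-ps gave -0.41 and 1.41 in the controls and 0.078 and 0.20 in Mta123∆, and principal transcript lengths gave -0.29 in Mta2 KO. The sign of the balance in Mta123∆ thus depended on length scaling and on the pseudogene. Depth limits Krt19 and Krt7 in the controls, at 9 to 35 counts for Krt19.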
